A study of Mus musculus with 6 samples.

Results

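The genes described here are the host transcripts of microRNAs with a known place in lymphoma, that is, the longer RNAs from which those microRNAs are cut. They were chosen by name. Of 8 listed hosts, 7 were measured, out of 24885 rows of the count table: Mir17hg (host of miR-17~92), Mcm7 (miR-106b~25), Dleu2 and Smc4 (miR-15 and miR-16), Mir22hg (miR-22), Evl (miR-342) and Nfyc (miR-30). Mir155hg, the host of miR-155, was not analysed here, and the row of the Mir155 hairpin is given in its place. All 7 measured hosts passed the filter on low counts.

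The RNA came from mouse Eµ-Myc lymphoma cells, a tumour model in which a Myc transgene is switched on in the B lineage by an immunoglobulin heavy chain enhancer. The del group (3 libraries) was labelled as deleted for the cluster. Its cells had been exposed to 250 nM 4-hydroxytamoxifen (4-OHT) for 4 days, which activates Cre-ERT2, and had then been subcloned. The fl group (3 libraries) was labelled floxed and retained both alleles, and cells of both groups carried Cre-ERT2 and the Eµ-Myc transgene. Both were grown for 48 hours on irradiated Ink4a-null fibroblast feeder cells before RNA was taken. Deletion, 4-OHT and subcloning cannot be told apart in this design. Separate cultures or clones behind the replicates of a group are not mentioned in the labels. The p-values therefore measure only the spread between these libraries, which may be technical.

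Total counts were 2121796 to 3738720 in del and 6554423 to 9580630 in fl, so depth moved with the group. The libraries also stood apart in cell type markers. The 13 summed B cell markers lay at 1844 to 2164 CPM (read counts scaled to library size) in del and 193 to 238 CPM in fl. Ms4a1, a B cell surface marker, averaged 0.0901 CPM in del and 0.0977 CPM in fl. The 10 myeloid markers summed to 2944 to 3762 CPM in del and 410 to 455 CPM in fl, with Mpo at 0 in both. Of the 8 myeloid markers tested 6 were higher in del, but Cd14 (1.95 ± 0.779 CPM in del and 3.93 ± 1.10 CPM in fl) and Elane (2.35 ± 0.872 CPM in del and 5.08 ± 2.00 CPM in fl) were lower. The 7 epithelial markers summed to 0.474 to 1.32 CPM in del and 371 to 411 CPM in fl, with Cdh1, Cldn7 and Esrp1 at 0 in both and Krt8 also at 0 in del. For the fibroblast feeder layer, 12 markers summed to 13.7 to 33.2 CPM in del and 2.06 to 8.21 CPM in fl. Lum was at 0 in both groups, Pdgfra and Postn in del and Thy1 in fl. The 10 T and NK cell markers summed to 0.811 to 1.58 CPM in del and 4.01 to 6.01 CPM in fl, with 7 at 0 in del and 4 at 0 in fl. The 7 erythroid markers summed to 0.263 to 0.474 CPM in del and 0.344 to 0.586 CPM in fl, with 6 at 0 in both. The part of these differences in the results below was not tested. In such bulk RNA, fewer cells of a type and less RNA per cell cannot be told apart.

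A microRNA is cut from a hairpin in a long primary transcript by Drosha and DGCR8 in the nucleus and by Dicer in the cytoplasm, and it then represses messenger RNAs that pair with its seed, bases 2 to 8. Some hairpins lie in noncoding transcripts that serve mainly as their source, such as Mir17hg, and others in introns of protein-coding genes, whose messenger RNA is spliced and read independently of the hairpin. MYC is known to activate miR-17~92 and, in MYC-driven lymphoma cells, to repress many others, among them miR-15a/16-1, miR-22 and miR-30. The libraries were primed from poly(A) tails and read at transcript 3' ends, so they report the level of the finished host RNA and not of the microRNA.

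The mature sequences are shown because several hosts carry microRNAs with the same seed. Of 17 mature microRNAs read from RefSeq (GRCm38.p6), which fall into 9 seeds, 3 seeds occur in microRNAs from more than 1 of these hosts. Of the 17, 13 are printed, 5′ to 3′ with the seed in capitals, leaving out miR-18a, miR-19a, miR-19b and miR-20a of Mir17hg.
miR-17-5p (Mir17hg): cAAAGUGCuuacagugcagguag
miR-106b-5p (Mcm7): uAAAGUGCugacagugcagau
miR-93-5p (Mcm7): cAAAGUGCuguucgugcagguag
miR-92a-3p (Mir17hg): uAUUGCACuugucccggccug
miR-25-3p (Mcm7): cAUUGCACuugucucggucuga
miR-15a-5p (Dleu2): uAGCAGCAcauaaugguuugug
miR-15b-5p (Smc4): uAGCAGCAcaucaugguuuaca
miR-16-5p (both Dleu2 and Smc4): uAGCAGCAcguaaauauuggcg
miR-155-5p (Mir155hg): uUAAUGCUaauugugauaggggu
miR-22-3p (Mir22hg): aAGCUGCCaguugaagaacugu
miR-342-3p (Evl): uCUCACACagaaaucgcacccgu
miR-30e-5p (Nfyc): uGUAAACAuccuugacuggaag
miR-30c-5p (Nfyc): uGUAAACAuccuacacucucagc
Counted base by base from the 5′ end, miR-17-5p and miR-93-5p were identical at 19 of 23 bases, miR-92a-3p and miR-25-3p at 18 of 21, and miR-15a-5p and miR-15b-5p at 18 of 22. The seeds of miR-18a and of miR-19a and miR-19b were found for Mir17hg and for no other host in the set.

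The position of the hairpins differed between the hosts. In the GENCODE M21 annotation of GRCm38, 10 of 18 hairpins lay in an exon of at least 1 host transcript and 8 in introns only. In Dleu2, Smc4, Evl and Nfyc all hairpins were intronic and lay 12.1 to 29.8 kb before the annotated 3' end, whereas in Mir17hg, Mcm7, Mir155hg and Mir22hg they lay 0.738 to 2.97 kb before it. Of the 17 hairpin rows measured, 7 had no count in any library, and no row passed the filter.

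**Figure D1:**
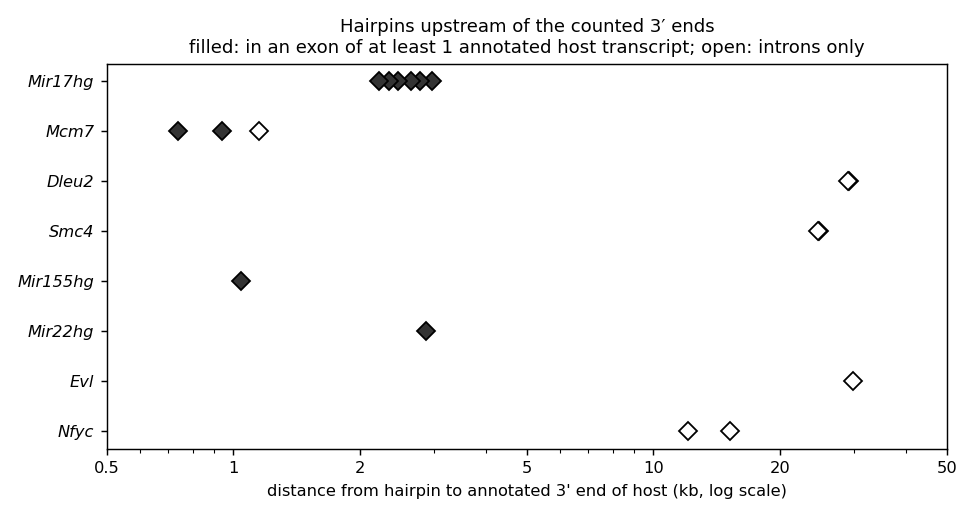
Distance in kb (log scale) from each microRNA hairpin to the annotated 3' end of its host, where the 3' reads fall. The hairpins of Dleu2, Smc4, Evl and Nfyc (open, introns only) lie 12.1 to 29.8 kb away, and those of the other 4 hosts 0.738 to 2.97 kb. Mir106b of Mcm7, at 1.15 kb, is also open.

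Of the 7 hosts tested, Evl and Smc4 were higher and Mir17hg and Nfyc lower in del, and Mcm7, Dleu2 and Mir22hg did not pass the threshold (edgeR's quasi-likelihood test, adjusted p under 0.05 with Benjamini-Hochberg adjustment over 10260 genes). The change in Evl was the largest, at 52.2-fold, while Smc4 was 2.02-fold higher, Mir17hg lay at 0.676 and Nfyc at 0.769 of the fl level. Across all genes tested 65.1% were called, 32.5% higher and 32.6% lower, so that 4 called of 7 is near the background and is no result about host genes. With library totals in place of TMM factors 2 were higher and 1 lower. The 4 called hosts were also those whose del and fl libraries did not overlap, against 69.9% of all genes tested (34.2% higher and 35.7% lower in del). The median log2 fold change was 0.23 over the 7 hosts and -0.0035 over all genes tested.

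**Figure D2:**
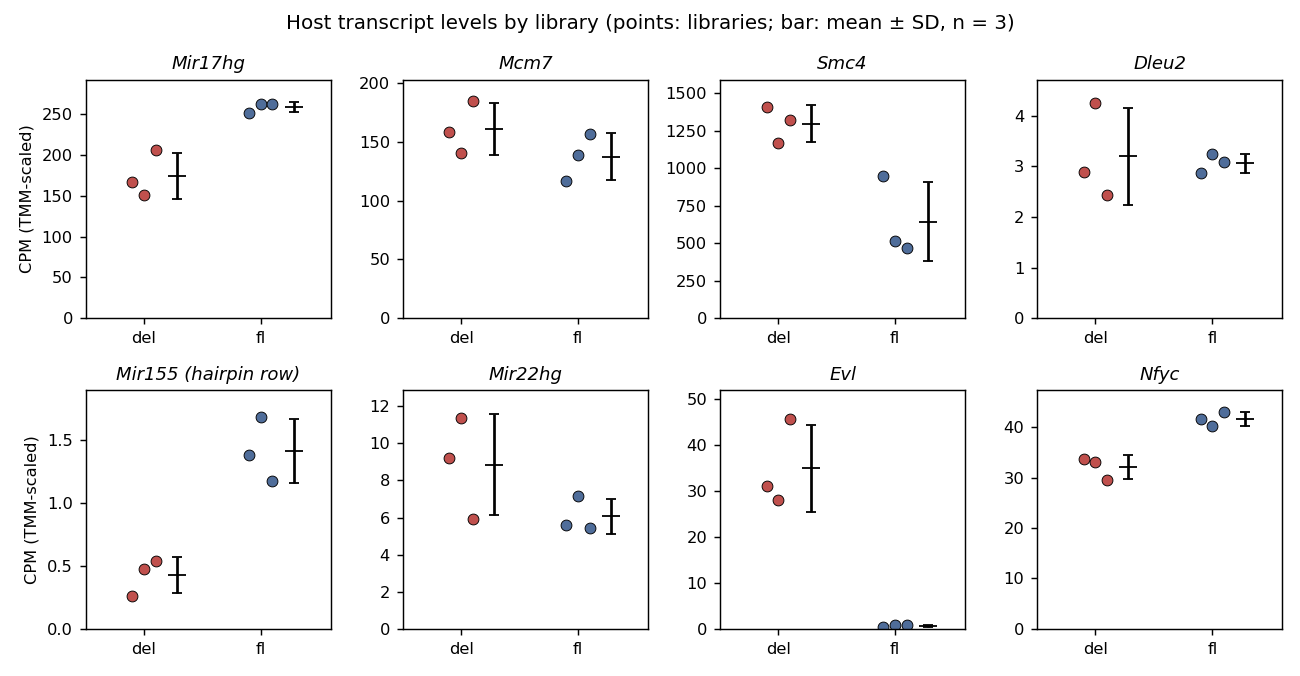
CPM in each library (points) with the mean and SD of 3 libraries (bar), del on the left and fl on the right, each panel on its own scale from 0. Evl lies at 27.9 to 45.7 CPM in del and below 1 CPM in fl, whereas Dleu2, Mcm7 and Mir22hg overlap between the groups.

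Mir17hg, a noncoding RNA (gene number 75957, chromosome 14), is the transcript of the deleted cluster itself. It was at 167, 152 and 206 CPM in the 3 del libraries, and at 252, 263 and 262 CPM in the fl libraries. Every del library was below every fl library, and the spread was wider in del. The mean was 175 ± 28 CPM in del and 259 ± 6.0 CPM in fl (SD, n = 3 each), a log2 fold change of -0.56 ± 0.15 (SE, adjusted p = 0.00844, edgeR). RefSeq (GRCm38.p6, as for all coordinates of hosts) places Mir17hg from 115044390 to 115046728 on the plus strand, a span that starts inside the cluster, holds Mir92-1 whole and runs 2222 bases past it, so that reads at its 3' end do not check the deletion. GENCODE starts the same gene at 115042879, before Mir17. The 6 hairpin rows of the cluster together held 0 counts in del and 7 in fl. At the fl rate 2.75 counts would be due in the shallower del libraries, so 0 counts there do not tell the groups apart (ratio of del to fl up to 1.77, exact 95% interval for counting error only).

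Mcm7, which encodes a subunit of the MCM2-7 helicase that unwinds DNA in S phase, carries the paralogous cluster miR-106b~25 on chromosome 5 (138164583 to 138172111, minus strand). Mcm7 (17220) was at 159, 141 and 185 CPM in the 3 del libraries, and at 117, 139 and 157 CPM in the fl libraries. The ranges overlapped. The means were 161 ± 22.1 CPM in del and 138 ± 20 CPM in fl (log2 fold change 0.23 ± 0.16, adjusted p = 0.234, edgeR). The rows of its 3 hairpins summed to 2 counts in del and 4 in fl, too few to compare. The gene Cops6 overlaps the 3' end of Mcm7 on the opposite strand and was at 69.5 ± 30.7 CPM in del and 121 ± 7.07 CPM in fl. The libraries were strand-specific, but no source used here says whether the counting used strand, and the level of Mcm7 is uncertain to that extent.

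Mir17hg and Mcm7 were also compared within each library, as a log2 ratio of counts that does not depend on scaling. The ratio was 0.07, 0.11 and 0.16 in the del libraries, against 1.11, 0.92 and 0.74 in the fl libraries. All del libraries had a lower ratio than all fl libraries. The means were 0.11 ± 0.04 in del and 0.92 ± 0.18 in fl (SD, n = 3 each), a difference of -0.81, with p = 0.1 in a two-sided exact permutation test, the smallest p that 3 against 3 allows.

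**Figure D3:**
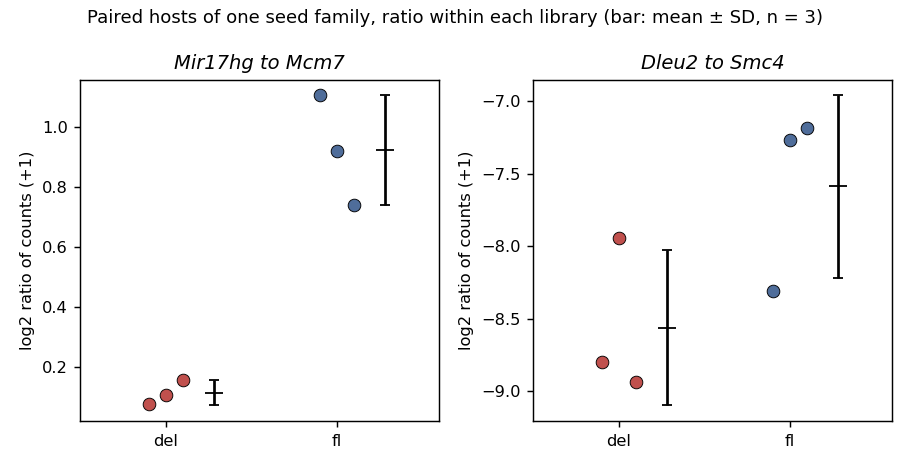
Log2 ratio of counts (+1) within each library for the hosts that share seeds, Mir17hg to Mcm7 and Dleu2 to Smc4, with mean and SD of 3 libraries, del on the left and fl on the right. For Mir17hg to Mcm7 the del libraries lie at 0.07 to 0.16 and the fl libraries at 0.74 to 1.11, while for Dleu2 to Smc4 the groups overlap.

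Smc4 and Dleu2 are the hosts of miR-15 and miR-16. Smc4 encodes an ATPase subunit of condensin, the complex that compacts mitotic chromosomes, and carries Mir15b and Mir16-2 in an intron (chromosome 3, 69004738 to 69034623, plus strand). Smc4 (70099) was at 1409, 1167 and 1322 CPM in the 3 del libraries, and at 947, 517 and 469 CPM in the fl libraries. All del libraries were above all fl libraries, and fl replicate 1 stood above the other fl libraries. The means were 1299 ± 123 CPM in del and 644 ± 263 CPM in fl (log2 fold change 1.01 ± 0.26, adjusted p = 0.00681, edgeR). Without fl replicate 1 the log2 fold change was 1.39.

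Dleu2, a noncoding RNA of the locus often lost in human chronic lymphocytic leukaemia, carries Mir15a and Mir16-1 (chromosome 14, 61602836 to 61682373, minus strand). Dleu2 (668253) had 11, 9 and 9 counts in the del libraries and 25, 29 and 21 in the fl libraries. Scaled for depth, these were 2.90, 4.26 and 2.43 CPM in del and 2.87, 3.25 and 3.08 CPM in fl. The ranges overlapped, and at so few counts only a large change could have been seen (log2 fold change -0.0080 ± 0.29, adjusted p = 0.983, edgeR). The row of Mir16-1 varied far more within groups than between them, with 13, 2 and 2 counts in the del libraries and 30, 4 and 0 in the fl libraries. Trim13, which overlaps the 3' end of Dleu2 on the opposite strand, had 1 count in all libraries together. The log2 ratio of Dleu2 to Smc4 was -8.80, -7.94 and -8.93 in the del libraries, against -8.31, -7.27 and -7.18 in the fl libraries. The groups overlapped through fl replicate 1 and del replicate 2 (difference -0.97, exact permutation p = 0.2, two-sided).

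Mir155 lies in an exon of both annotated transcripts of Mir155hg (the BIC gene, induced in activated B cells and high in several human lymphomas) on chromosome 16, from 84714140 to 84714204, 1041 bases before the 3' end of the host. The Mir155 row had 1, 1 and 2 counts in the del libraries and 12, 15 and 8 in the fl libraries. Scaled for depth this was 0.263, 0.474 and 0.541 CPM in del and 1.38, 1.68 and 1.17 CPM in fl, with no overlap. Over the groups, 4 counts in del stood against 35 in fl, a ratio of del to fl of 0.291 (exact 95% interval 0.0752 to 0.814, counting error only). The row failed the count filter. With no filter its log2 fold change was -1.77 ± 0.64 (adjusted p = 0.0288, edgeR over 14759 genes).

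Mir22hg, a noncoding RNA with Mir22 in an exon (chromosome 11, 75461539 to 75466690, plus strand), had 35, 24 and 22 counts in the del libraries and 49, 64 and 37 in the fl libraries. Mir22hg (100042498) was thus at 9.22, 11.4 and 5.95 CPM in del and 5.62, 7.16 and 5.42 CPM in fl. Del replicates 1 and 2 were above all fl libraries, and del replicate 3 lay among them (log2 fold change 0.49 ± 0.26, adjusted p = 0.125, edgeR). Without del replicate 3 the host passed the threshold, at 0.72 (adjusted p = 0.0304). The gene Tlcd2 covers the 3' end of Mir22hg on the same strand. It had at most 4 counts in a del library and at most 11 in an fl library, and no source used here says how shared reads were assigned.

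Evl, which encodes an Ena/VASP protein that promotes the growth of actin filaments, carries Mir342 in an intron (chromosome 12, 108554681 to 108688516, plus strand). Evl (14026) had 118, 59 and 169 counts in the del libraries and 3, 7 and 6 in the fl libraries, although the fl libraries were deeper. These were 31.1, 27.9 and 45.7 CPM in del and 0.344, 0.783 and 0.880 CPM in fl. The lowest del library was far above the highest fl library. The means were 34.9 ± 9.47 CPM in del and 0.669 ± 0.286 CPM in fl (log2 fold change 5.71 ± 0.32, adjusted p = 1.1e-06, edgeR), and 98.2% of the genes tested had a lower fold change. Evl thus moved in the same direction as the summed B cell and myeloid markers, at 1844 to 2164 and 2944 to 3762 CPM in del and 193 to 238 and 410 to 455 CPM in fl. The summed fibroblast feeder markers were also higher in del (13.7 to 33.2 CPM, against 2.06 to 8.21 CPM in fl). The epithelial sums and the T and NK cell sums were lower in del, and the erythroid sums overlapped. The part of these markers in the result was not tested. Degs2, which overlaps the 3' end of Evl on the opposite strand, had no count in any library.

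Nfyc, which encodes the C subunit of the CCAAT-binding factor NF-Y, carries Mir30e and Mir30c-1 in introns (chromosome 4, 120757435 to 120831579, minus strand). Nfyc (18046) was at 33.7, 33.2 and 29.5 CPM in the 3 del libraries, and at 41.7, 40.3 and 43.1 CPM in the fl libraries. The groups did not overlap, but the change was small (32.1 ± 2.31 CPM in del and 41.7 ± 1.41 CPM in fl, log2 fold change -0.38 ± 0.13, adjusted p = 0.0283, edgeR). The call was lost under 8 of 15 alternatives, among them DESeq2 (adjusted p = 0.0519) and libraries thinned to equal depth (adjusted p = 0.187).

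A list of 33 other genes reported as microRNA hosts was set beside the 7. A hairpin on their own strand was found for 27 of the 33 in the annotation used. The 27 genes tested are a different set. It includes Ppargc1b, Dalrd3 and Lpp, which rose, and Ptk2, which fell, all with no hairpin found. Of the 27 tested, 12 rose, 6 fell and 9 did not pass, with a median log2 fold change of 0.41. The share called was 66.7%, near the 65.1% of all genes tested, and is no result about host genes. Ctdspl, a phosphatase gene and host of Mir26a-1, was at 43.5 ± 12.5 CPM in del and 1.81 ± 0.299 CPM in fl (log2 fold change 4.53 ± 0.26, adjusted p = 1.35e-06, edgeR). Its relative Ctdsp2, host of Mir26a-2, was lower in del (-0.98 ± 0.15), and Ctdsp1, host of Mir26b, higher (0.39 ± 0.12), so the hosts of this family did not all move one way. Ppargc1b, a transcriptional coactivator gene reported as a host but with no hairpin found in the annotation used, rose by 2.01 ± 0.18 (log2 scale). Huwe1, a ubiquitin ligase gene and host of Mir98, was at 198 ± 34.8 CPM in del and 57.8 ± 9.04 CPM in fl (1.78 ± 0.18). Rcl1, which functions in ribosomal RNA processing and hosts Mir101b, was at 102 ± 9.41 CPM in del and 234 ± 11.8 CPM in fl (-1.20 ± 0.14). Ctdsp2 and Ctdsp1 were named after their values were seen.

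**Figure D4:**
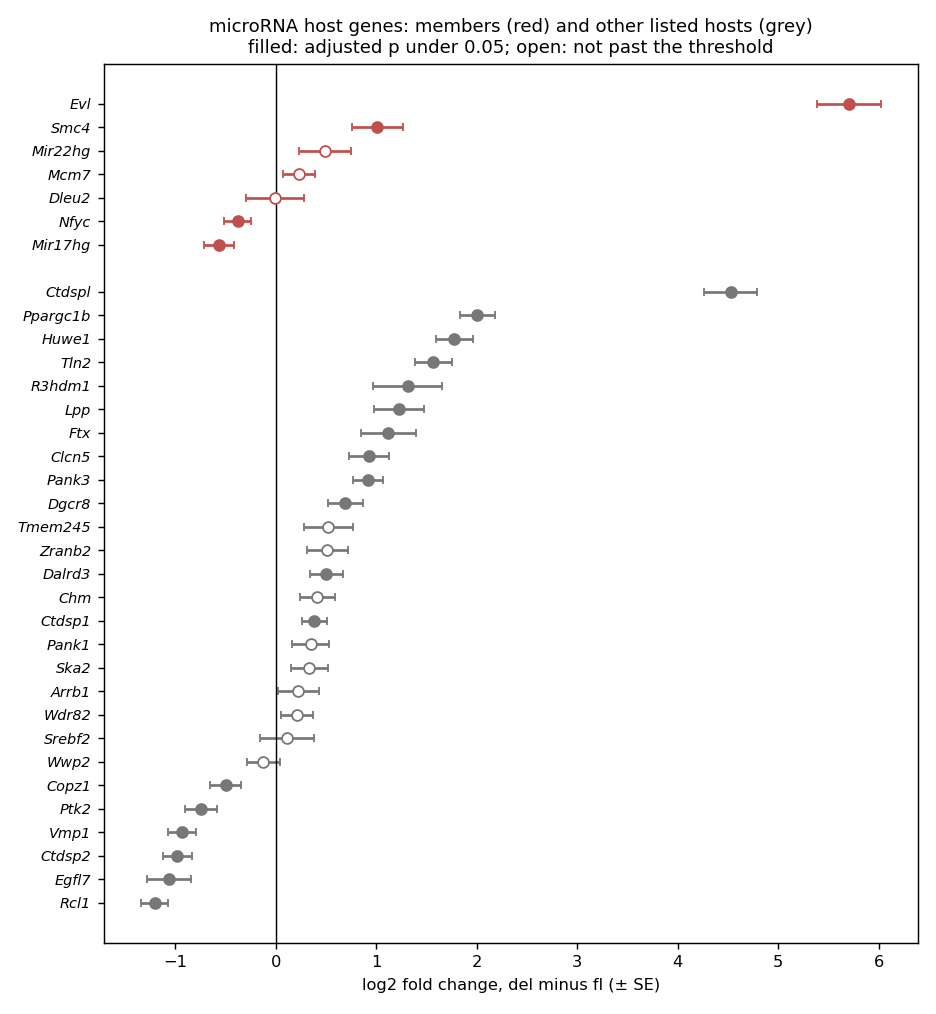
Log2 fold change (del minus fl, ± SE) of the 7 measured hosts (red) and of 27 other genes reported as microRNA hosts (grey). Filled symbols mark adjusted p under 0.05. Evl at 5.71 and Ctdspl at 4.53 stand far to the right, and the falls reach -1.20 for Rcl1.

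The coding hosts were set beside the subunits their proteins work with. Of 7 condensin partners of Smc4, 3 rose, 1 fell and 3 did not pass (median 0.08). The share called was 57.1%, against 65.1% of all genes tested. Smc2, the ATPase that pairs with SMC4, was at 1057, 1635 and 1113 CPM in the 3 del libraries, and at 491, 277 and 213 CPM in the fl libraries (log2 fold change 1.95 ± 0.31), and like Smc4 it was highest among fl libraries in fl replicate 1. The condensin II genes Ncapd3 (1.12 ± 0.27) and Ncapg2 (1.25 ± 0.35) also rose. Ncaph2, the third condensin II gene, fell (-0.67 ± 0.13). The condensin I genes Ncapd2, Ncapg and Ncaph lay at -0.02, 0.08 and 0.07.

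Of 12 helicase partners of Mcm7, 3 rose, 3 fell and 6 did not pass (median 0.15). This is 50% called, below the 65.1% of all genes tested. Mcm3, another subunit of the ring, was at 309, 416 and 616 CPM in the 3 del libraries, and at 195, 189 and 192 CPM in the fl libraries (1.22 ± 0.23). The GINS genes, whose products activate the helicase, split. Gins3 rose by 1.00 ± 0.18, whereas Gins4 (-0.97 ± 0.13) and Gins2 (-0.81 ± 0.14) fell and Gins1 did not pass (-0.12 ± 0.20). For NF-Y and the Ena/VASP family, Nfya rose (0.64 ± 0.20), Nfyb did not pass (0.20 ± 0.16, adjusted p = 0.301, edgeR) and Vasp fell (-1.02 ± 0.13). The rise of Nfya was not called in thinned libraries, without del replicate 3 or without fl replicate 1. Evl and Vasp, which encode proteins of 1 family, thus moved in opposite directions, with Vasp at 53.8 ± 3.98 CPM in del and 109 ± 6.47 CPM in fl.

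**Figure D5:**
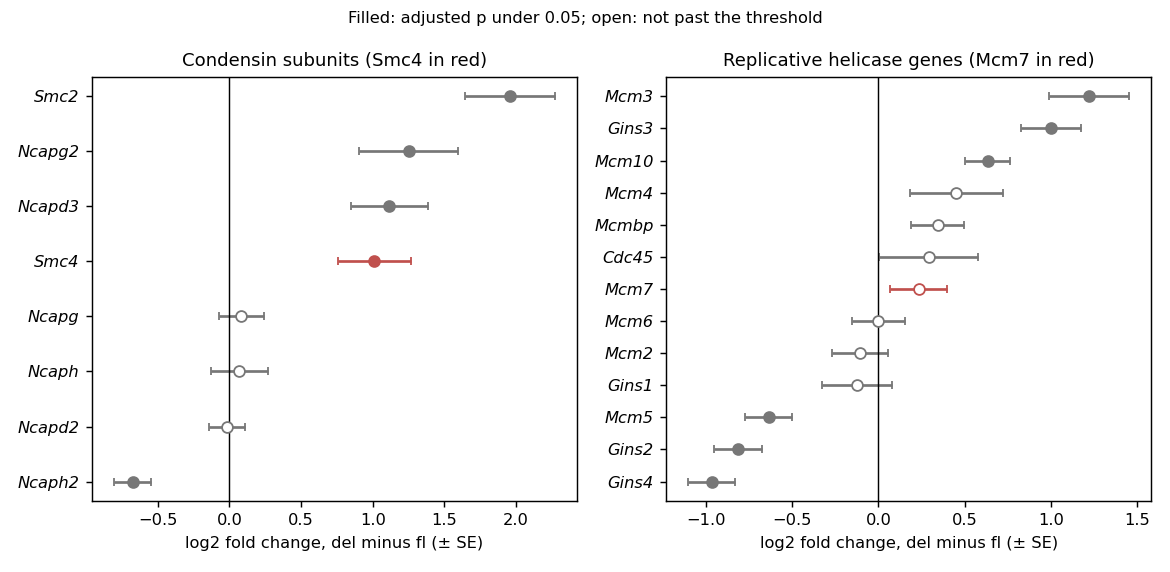
Log2 fold change (del minus fl, ± SE) of condensin subunit genes with Smc4 in red and of replicative helicase genes with Mcm7 in red, filled where adjusted p was under 0.05. Smc4 at 1.01 lies with Smc2, Ncapd3 and Ncapg2, while Mcm7 at 0.23 lies among genes on both sides of 0.

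Regulators reported at the promoters of these hosts were examined next. Of 14 listed, 13 were tested, of which 7 rose, 2 fell and 4 did not pass (median 0.57). The 69.2% called is near the 65.1% of all genes tested. With upper-quartile factors 6 were higher and 3 lower. Myc, which drives these tumours and is reported at most of these hosts, was at 452, 422 and 395 CPM in the 3 del libraries, and at 454, 417 and 534 CPM in the fl libraries (-0.15 ± 0.15, adjusted p = 0.399, edgeR). The groups overlapped. E2f1 did not pass (0.21 ± 0.17), while E2f3 rose by 0.77 ± 0.14. Junb, an AP-1 factor gene reported at the miR-155 host, was at 73.6 ± 3.95 CPM in del and 205 ± 31.4 CPM in fl (-1.48 ± 0.15). The Mir155 row was also lower in del, and a link between them was not tested. Of the other listed regulators, Fosb rose (0.79 ± 0.30), and Nfkb1 (-0.34 ± 0.14) and Rela (0.04 ± 0.16) did not pass. Pax5, a B lineage factor gene, was at 30.02, 49.3 and 147 CPM in the 3 del libraries, and at 2.87, 4.03 and 2.05 CPM in the fl libraries. Spi1, which encodes PU.1, rose by 0.94 ± 0.14.

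Promoter windows of 300 bases (250 before and 50 after the annotated start, RefSeq GRCm38.p6) were available for all hosts but Smc4. They were searched on both strands. An E2F motif (TTTGGCGC or TTTCGCGC) was in 0.813% of all promoters and in 1 of 2 windows of Mcm7. An E-box (CACGTG, the motif MYC and MAX bind) was in 7.15% of all promoters and in the window of Dleu2. Neither was found in the other windows searched. The CCAAT box (CCAAT, the motif NF-Y binds) was in 37.4% of all promoters, in both windows of Mcm7, in the windows of Mir155hg and Mir22hg and in 2 of 3 windows of Nfyc, and not in those of Mir17hg, Dleu2 or Evl. In the Mcm7 window shown, a CCAAT box shares its first base with the end of the E2F motif. Each E2F motif and E-box is shown on the strand of its gene with the motif in capitals.
Mcm7, chr5:138171849-138171878, minus strand: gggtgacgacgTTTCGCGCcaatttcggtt
Dleu2, chr14:61682534-61682563, minus strand: ttcccgagagggCACGTGacggggttggca
These are letters in a window and not sites of binding. The RefSeq window of Mir17hg lies inside the cluster, because of the start given above, and does not cover the start in GENCODE.

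Reported targets of these microRNAs were taken list by list, beside all genes tested, of which 65.1% were called, 32.5% rose and the median was -0.0035. Of 10 reported targets of miR-15/16, all tested, 4 rose, 1 fell and 5 did not pass (median 0.38), a share called of 50%. Ccnd1, the cyclin D1 gene, rose by 2.31 ± 0.16, Bcl2, an anti-apoptotic gene, by 2.53 ± 0.18 and Cdc25a, a cell cycle phosphatase gene, by 1.12 ± 0.22, while Ccne1, the cyclin E1 gene, fell (-1.46 ± 0.23). Of 11 tested targets of miR-155, 9 rose, 1 fell and 1 did not pass (median 1.29), a share called of 90.9%. They included Cebpb, a transcription factor gene (1.80 ± 0.14), Inpp5d, which encodes the phosphatase SHIP1 (1.32 ± 0.14), Sla (2.07 ± 0.28) and Trp53inp1 (4.39 ± 0.42). Socs1 was at 3.34 ± 1.23 CPM in del and 1.99 ± 0.898 CPM in fl (adjusted p = 0.14, edgeR). Of 8 tested targets of miR-22, miR-30 or miR-342, 6 rose, 1 fell and 1 did not pass (median 0.91), a share called of 87.5%. This share was not stable. It was 62.5% without del replicate 2 and also without fl replicate 2, against 61% and 59.6% of all genes tested in those settings. Dnmt1, the maintenance DNA methyltransferase gene, rose by 2.03 ± 0.15, Bcl6 by 1.99 ± 0.30 and Ezh2 by 1.07 ± 0.16, and Mycbp fell (-0.88 ± 0.19). Ccnd1 and Trp53inp1 are also reported targets of miR-17~92, and Spi1 stands in 2 of the lists. The microRNAs themselves were not measured.

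The heptamer that pairs with the seed was found in the longest annotated 3' UTR of most of these targets. For miR-15/16 it is TGCTGCT, present in 9 of 10 listed targets and in 22.5% of 20821 genes with a UTR. For miR-155 it is AGCATTA, present in 10 of 12 listed targets and in 8.75% of genes. Targets are often reported because of such sites, and UTR length was not matched. A few are shown for genes named above, with the heptamer in capitals.
Bcl2, miR-15/16: aagaaaccctgTGCTGCTatcctgccaag
Ccne1, miR-15/16: tattttgtaagTGCTGCTatgtctatcaa
Cebpb, miR-155: tttccgtttcgAGCATTAaagtgaagaca
Spi1, miR-155: ccgccggccatAGCATTAacccgtcgccc
Ezh2, miR-342: ccagctgggtgGTGTGAGtccccagcctc
Of these, Ccne1 fell and the other genes rose in del. Of the 9 listed targets of miR-22, miR-30 or miR-342, 4 held GGCAGCT (miR-22), present in 14.5% of genes. The heptamer of miR-30, TGTTTAC, was in 3 of the 9 and in 14.3% of genes, and that of miR-342, GTGTGAG, in 2 of the 9 and in 13.8% of genes. Dnmt1 had none of these 3 heptamers in its annotated 3' UTR.

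Genes with the most similar profile were sought for each host among 6048 genes with a mean of at least 20 CPM. Likeness was the root mean square difference of centred log2 CPM over the 6 libraries, a description in which the difference between the groups weighs heavily. For Mir17hg the nearest were Qars (0.0334) and Igbp1 (0.0546), for Mcm7 Ddx5 (0.065) and Nup155 (0.0664), and for Nfyc Nsmce1 (0.0282) and Eef2 (0.0303). For Smc4 they were Cep57 (0.0636) and Snap29 (0.0945), and for Dleu2 Nelfa (0.0715) and Crebzf (0.0918). The nearest were G3bp2 (0.107) and Fbxo34 (0.12) for Mir22hg, and Gm1966 (0.155) and the chemokine gene Ccl3 (0.198) for Evl.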

How the data were processed

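Raw read counts per gene were deposited by the authors for 6 libraries. Per the labels' protocols, cDNA was primed with barcoded oligo-dT, pooled and made into strand-specific 3' libraries. STAR, HTSeq and mm10 are named in the submitters' processing notes, with no version or setting. Of 24885 rows 24052 carry a gene number, of which 23969 matched a symbol in RefSeq GRCm38.p6, the assembly of mm10. GENCODE M21 gave strands, exons and UTRs.

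Genes were kept by filterByExpr, scaled with TMM and tested with edgeR 4.0.16 (R 4.3.3), robust quasi-likelihood, with a group term alone and Benjamini-Hochberg adjustment over 10260 genes, threshold 0.05. Levels are CPM on TMM-scaled totals. Standard errors derive from the F statistic. DESeq2 1.42.0 and limma-voom 3.58.1 were alternatives. The script was tested on simulated data. Intervals cover counting error only, as PCR reads are not independent molecules.

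The members, lists and tests were chosen with earlier results of these data known. Named genes were the members, their hairpins, up to 4 genes per list by smallest adjusted p, and the 2 nearest profiles per member with a mean of at least 20 CPM. Others were named after their values were seen.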

Additional observations from a re-analysis of the deposited data

How the results depend on the processing

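Under 15 alternatives Evl (log2 fold change 5.30 to 5.91), Smc4 (0.83 to 1.39) and Mir17hg (-0.70 to -0.47) remained past the threshold, and Mcm7 (0.10 to 0.34) remained short of it. Dleu2, which no setting called, turned positive with RLE factors in edgeR (0.0050), library totals only (0.042), DESeq2 (0.016), limma-voom (0.016) and the replicate block (0.023), and lay between -0.20 and 0.16 when single libraries were left out. Nfyc was not called with library totals only (-0.34), DESeq2 (-0.37), thinned libraries (-0.26) or the replicate block (-0.38), nor without del replicate 3 or any 1 of the fl replicates (-0.42 to -0.32 over the 6 omissions, adjusted p 0.0401 to 0.0846). Mir22hg ranged from 0.32 to 0.72 over these omissions. Of 3 NF-Y and Ena/VASP partners tested, 2 were called (66.7%, against 65.1% of all genes tested). In thinned libraries 1 was called (33.3%, against 60.5% of all genes tested), and over the omissions 1 to 2 were. The call lost was that of Nfya, and the cause was not tested. Upper-quartile factors moved the median of all genes by -0.13. Genes called numbered 5488 to 7286. Same-numbered libraries showed no sign of pairing (correlations of 0.103, -0.0515 and -0.0185, against -0.225 to 0.236 for different numbers). With 3 libraries per group this does not settle whether the numbers pair them. With the block 6510 genes were called. The block changed no host call but that of Nfyc (adjusted p = 0.0591). Dleu2 and Mir22hg failed the filter at 10 CPM in 3 libraries, and Dleu2 also failed it after thinning. Low counts limit Dleu2 and the hairpin rows.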
